A study of Mus musculus with 9 samples.

Results

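The genes described here are 10 genes of major histocompatibility complex (MHC) class I presentation and the immunoproteasome, chosen by name from the 53801 Ensembl genes in the deposited count files. They were *H2-K1*, *H2-D1*, *B2m*, *Tap1*, *Tap2*, *Tapbp*, *Nlrc5*, *Psmb8*, *Psmb9* and *Psmb10*, and all 10 passed the filter on low counts in each of the 3 comparisons. The RNA came from monocytes/macrophages sorted as CD11c-Ly6G-CD11b+CD45high cells from male C57BL/6J mice that were 9 weeks old. Stroke was induced by closing the distal middle cerebral artery for good, together with the common carotid artery on the same, left side (dMCAO). The 3 groups, of 3 libraries each, were stroke brain (the ipsilesional hemisphere, each library a pool of 5 mice), stroke blood (each library 1 mouse) and sham blood (each library 1 mouse after a sham operation). The cells of both stroke groups were collected on day 5 after dMCAO, and the sources used here do not give the day for sham blood. None of the 3 groups is sham brain, so tissue and stroke cannot be told apart in a comparison of brain with sham blood, and pooling of animals cannot be told apart from tissue in any comparison with the brain.

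Class I molecules display peptides from inside the cell to CD8+ T cells. The peptides are cut by the proteasome, carried into the endoplasmic reticulum by the transporter TAP, and loaded there onto a heavy chain paired with beta-2-microglobulin. Interferon-gamma induces the set, including the catalytic subunits that replace their constitutive counterparts to form the immunoproteasome, and the activator NLRC5 drives class I genes from an upstream element bound by the RFX complex. Of the 10 genes, 7 lie on chromosome 17 in the MHC (GRCm38), where *Psmb9*, *Tap1*, *Psmb8* and *Tap2* follow each other within chr17:34181988-34216321, *Tapbp* lies at chr17:33915899-33929288, *H2-K1* at chr17:33996017-34000333 and *H2-D1* at chr17:35262730-35267499. *B2m* is at chr2:122147686-122153083, *Nlrc5* at chr8:94434356-94527272 and *Psmb10* at chr8:105935735-105938444. In macrophages this machinery serves both the presentation of their own proteins and the cross-presentation of engulfed material.

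The sequences upstream of 2 members are printed because they hold letters like those of elements known to control this family. Of these 2, the letters searched for the interferon element, GAANNGAAA, were matched only in *H2-K1*. Each is the stretch of 250 bases before the RefSeq transcription start (GRCm38.p6), 5′ to 3′, with motif matches in capitals. The *H2-K1* stretch lies at chr17:34000348-34000597 on the minus strand, and the *B2m* stretch at chr2:122147437-122147686 on the plus strand.
H2-K1: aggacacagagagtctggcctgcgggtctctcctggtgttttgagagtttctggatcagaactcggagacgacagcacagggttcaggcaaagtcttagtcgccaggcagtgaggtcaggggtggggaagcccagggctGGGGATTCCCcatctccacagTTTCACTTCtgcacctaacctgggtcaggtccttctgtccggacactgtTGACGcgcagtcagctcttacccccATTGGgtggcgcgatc
B2m: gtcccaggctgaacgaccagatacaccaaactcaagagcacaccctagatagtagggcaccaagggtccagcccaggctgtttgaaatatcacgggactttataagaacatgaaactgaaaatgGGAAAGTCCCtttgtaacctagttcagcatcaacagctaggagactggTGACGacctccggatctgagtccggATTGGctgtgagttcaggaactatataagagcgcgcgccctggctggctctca
The capitals in *H2-K1* mark, in order, an NF-kB-like match, an interferon-stimulated response element (ISRE)-like match (GAANNGAAA, here on the opposite strand), an X2-like match (TGACG) and an inverted CCAAT box. Those in *B2m* mark an NF-kB-like match on the opposite strand, an X2-like match and an inverted CCAAT box. The *B2m* stretch also holds gaaactgaaa, with a wider gap than GAANNGAAA allows, so this search cannot show that it lacks an interferon element. Both strands were searched, and no matches in these stretches overlapped each other. Of 32851 RefSeq stretches of the same length, 4.11% held the NF-kB-like letters, 6.31% the ISRE-like letters, 17.8% the X2-like letters and 33.9% a CCAAT box. The stretch upstream of *H2-D1* was 87.4% identical to that of *H2-K1* over 190 aligned bases, and held the same NF-kB-like, ISRE-like and X2-like letters at the same spacing, with 70 bases from the first base of the NF-kB-like match to that of the X2-like match. In *B2m* this distance was 48 bases. The X2-like match stood 25 bases ahead of the inverted CCAAT box in all 3 genes. *Tap1* and *Psmb9* lie head to head, with RefSeq starts 226 bases apart, and the 225 bases shared by their upstream stretches hold 1 X2-like match and 1 CCAAT box. The stretch of *Psmb8* held 1 match to the gamma-activated site letters TTCNNNGAA, which 7.02% of all stretches held, that of *Tapbp* held only CCAAT boxes, and that of *Psmb10* held none of the 5 motifs. The stretches of *H2-D1*, *Tapbp*, *Psmb8* and *Psmb9* lie inside the deposited coordinates of these genes, and that of *Psmb10* lies there in part. Matches and their absence thus depend on the RefSeq start used. The RefSeq table used gave a stretch for 8 of the 10 genes, and *Tap2* and *Nlrc5* are named only.

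Total counts were 18475118 to 22623578 per library, and libraries of the same group differed beyond counting noise. All 11 monocyte/macrophage markers were detected in every group, and their summed level, in counts per 1000000 counts of library size scaled by edgeR's TMM factors (normalised CPM), was 46538 to 50825 in the brain, 105241 to 112329 in stroke blood and 91878 to 128780 in sham blood. The summed level of 10 microglial markers was 1416 to 4087 in the brain against 150 to 206 in stroke blood, and *Sall1*, which defines microglia, was at 0 in both blood groups and detected in the brain. The 7 dendritic cell markers summed to 612 to 784 in the brain and 105 to 227 in stroke blood, although the sort took CD11c- cells. The 7 T cell markers summed to 103 to 146 in the brain and 25.4 to 59.0 in stroke blood, and the 6 NK cell markers to 471 to 1140 and 249 to 784, with overlap. In sham blood these lists summed to 85.3 to 344, 53.9 to 112 and 196 to 536. The 7 erythroid markers summed to 3.81 to 13.7 in the brain, 14113 to 20485 in stroke blood, and 1251 to 33894 in sham blood, where sham blood 1 had the lowest value. These other transcripts move with the groups compared below, and their part in the results was not tested. In sorted bulk RNA, fewer cells of a type and less RNA per cell cannot be told apart.

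The members spanned a wide range of abundance. Per kilobase of exon, *B2m* was the highest in every group, at 6784 ± 1631 normalised CPM per kb in stroke blood (SD, n = 3) and 3969 ± 599 in the brain, followed by *H2-D1* and *H2-K1*. The ranges of these 3 genes did not overlap in any group on this scale. Next came *Tapbp*, then *Psmb10* and *Psmb8*, whose ranges overlapped in stroke blood and in the brain, then *Psmb9* and *Tap1*, which overlapped in the same groups. *Tap2* followed, and *Nlrc5* was the lowest, at 2.56 ± 0.55 per kb in sham blood, 2.82 ± 0.33 in stroke blood and 4.14 ± 0.57 in the brain. When the length of the principal transcript was used instead, *Psmb8* stood above *Psmb10*, and the ranges of *B2m* and *H2-D1* overlapped in the brain.

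Stroke brain was compared with stroke blood to see which class I genes differ between monocytes/macrophages of the brain and those of the blood. The sort does not separate resident microglia from cells that had entered the brain. *Nlrc5* and *Tap2* were higher in the brain, *B2m* and *Psmb10* were lower, and the other 6 members did not pass the test (edgeR quasi-likelihood test, Benjamini-Hochberg adjusted p below 0.05). Thus 4 of 10 members were called in a comparison where 30.6% of the 13189 genes tested were called. In each direction it was 2 of 10 members, beside 17.5% of all genes called higher and 13.1% called lower. Of all calls in this comparison 57.2% were higher, and this share was 69.2% with library size only and 45.5% with upper-quartile normalization, which move the median log2 fold change of all genes by 0.15 and -0.15. None of the members was a differentially expressed gene (DEG) by the study's thresholds, which add an absolute log2 fold change above 1, while 21.0% of all genes tested were DEGs. The median log2 fold change was 0.01 over the members and 0.06 over all genes tested. Both rises lost the call in most of the other fits, and the details stand with each gene.

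**Figure D1:**
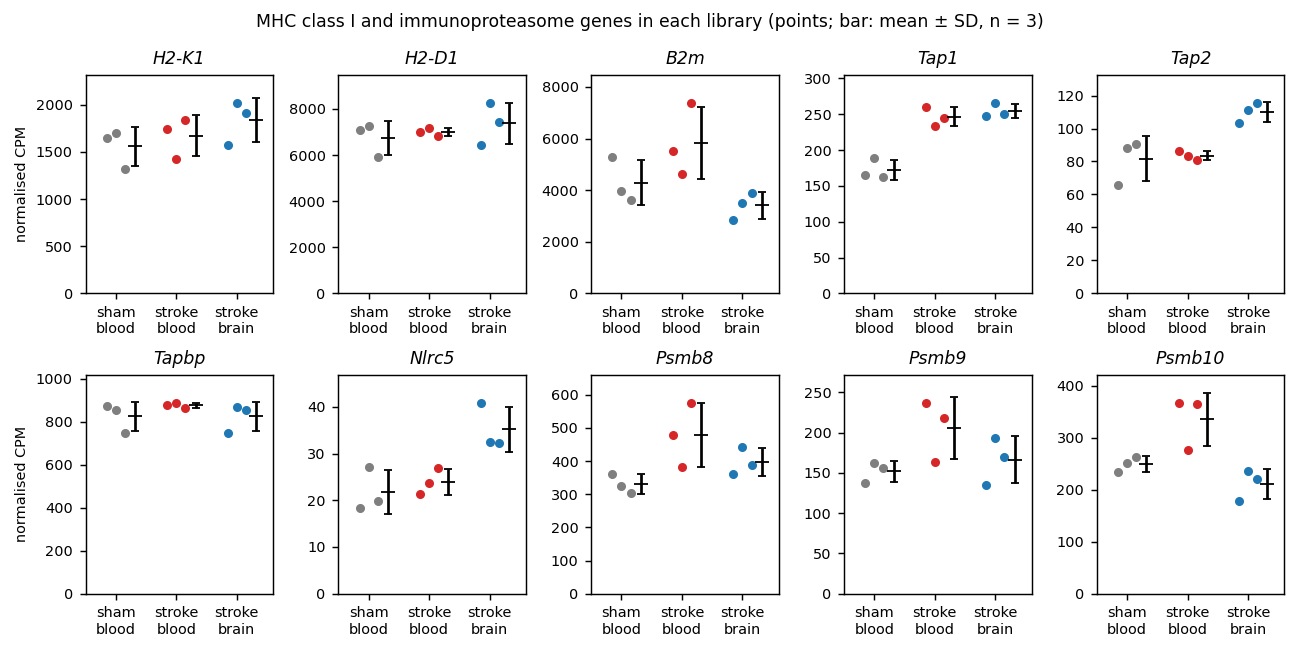
Normalised CPM (y axis, from 0) of the 10 genes in sham blood (grey), stroke blood (red) and stroke brain (blue), with a point for each library in the order of its replicate number and a bar for the mean ± SD of 3 libraries. *Nlrc5* and *Tap2* in the brain lie above all blood libraries, *B2m* and *Psmb10* in the brain lie below all stroke blood libraries, and *Tap1* is higher in both stroke groups than in sham blood.

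The classical heavy chains *H2-K1* and *H2-D1*, which hold the peptide, did not pass the test in any comparison. *H2-K1* measured 1648, 1702 and 1322 normalised CPM in sham blood, 1745, 1424 and 1841 in stroke blood, and 1574, 2018 and 1912 in the brain. The 3 ranges overlapped, and the log2 fold change of brain versus stroke blood was 0.17 with a 95% interval from -0.19 to 0.53 (adjusted p = 0.458). *H2-D1* measured 7076, 7262 and 5902 in sham blood, 7016, 7179 and 6819 in stroke blood, and 6448, 8255 and 7418 in the brain. Its brain libraries spread on both sides of the stroke blood libraries, with a log2 fold change of 0.11 and an interval from -0.25 to 0.46 (adjusted p = 0.647). A change of 1 on the log2 scale lies outside these intervals for both genes. Of the stretches of 75 bases, the read length, in the principal transcript, 1.55% of *H2-K1* and 7.10% of *H2-D1* also occur in another gene. Reads of such stretches cannot be assigned to a single gene with certainty.

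*B2m*, the light chain that pairs with class I heavy chains, was lower in the brain. It measured 5285, 3970 and 3626 normalised CPM in sham blood, 5501, 4628 and 7374 in stroke blood, and 2859, 3505 and 3877 in the brain. Every brain library was below every stroke blood library, whereas brain and sham blood overlapped. The log2 fold change of brain versus stroke blood was -0.74 (SE 0.20, 95% interval -1.19 to -0.29, adjusted p = 0.021), or 0.600-fold. The call was lost without stroke blood 3, the library with the highest *B2m* (adjusted p = 0.054), and without brain 2 (adjusted p = 0.061). The transcript of *B2m* is the shortest of the 10, at 860 bases, and in this comparison the median log2 fold change of the 1531 genes with a principal transcript under 1 kb was -0.69. With an offset for this trend with length, chosen after the trend was seen, *B2m* no longer passed, at a log2 fold change of -0.23 (adjusted p = 0.304).

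*Tap1* and *Tap2* encode the subunits of the peptide transporter, and *Tapbp* encodes tapasin, which holds the class I molecule at TAP. *Tap1* was the member that differed between brain and sham blood. It measured 166, 189 and 163 normalised CPM in sham blood, 260, 234 and 245 in stroke blood, and 248, 266 and 251 in the brain. All 6 libraries of stroke mice lay above all 3 sham libraries, and brain and stroke blood overlapped. Brain versus sham blood gave a log2 fold change of 0.56 (SE 0.13, 95% interval 0.27 to 0.85, adjusted p = 0.020), which remained called with the length offset (adjusted p = 0.021) and in 3 of 6 fits without 1 library, among them the fit without sham blood 1 (0.045). It was lost without brain 2 (0.079), brain 3 (0.067) or sham blood 3 (0.063). Stroke versus sham blood gave 0.48 (SE 0.14, 95% interval 0.16 to 0.81), with an unadjusted p of 0.0078 and an adjusted p of 0.299. *Tap1* shares 212 exonic bases with *Psmb9* on the other strand, and the strand setting of the counting is not given in the sources used here, so reads of that stretch cannot be assigned to either gene with certainty.

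*Tap2* was higher in the brain than in stroke blood. It measured 65.9, 88.4 and 90.9 normalised CPM in sham blood, 86.3, 83.3 and 80.8 in stroke blood, and 103, 111 and 115 in the brain. The 3 brain libraries lay above all 6 blood libraries. The log2 fold change of brain versus stroke blood was 0.43 (SE 0.14, 95% interval 0.11 to 0.75, adjusted p = 0.046). The call stood in only 1 of 6 fits without 1 library, the one without brain 1 (adjusted p = 0.048), with adjusted p up to 0.148 in the others, and it was lost with the length offset (log2 fold change 0.25, adjusted p = 0.176). Brain versus sham blood gave 0.43 as well (adjusted p = 0.103). The exons of *Tap2* overlap those of *Gm20496* and *Gm15821* on the other strand.

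*Tapbp* did not pass the test in any comparison. It measured 874, 853 and 746 normalised CPM in sham blood, 880, 885 and 864 in stroke blood, and 748, 868 and 857 in the brain. The ranges overlapped, and the interval of its log2 fold change of brain versus stroke blood was -0.37 to 0.25 (adjusted p = 0.785). A part of its exons is shared with *Zbtb22* on the same strand and with *Gm19412* on the other.

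*Nlrc5*, the transactivator of class I genes, was the least abundant member and had the largest positive log2 fold change of the 10 in brain versus stroke blood. It measured 18.4, 27.2 and 19.8 normalised CPM in sham blood, 21.3, 23.6 and 27.0 in stroke blood, and 40.8, 32.6 and 32.2 in the brain, from raw counts of 357 to 835. All brain libraries were above all blood libraries. The log2 fold change of brain versus stroke blood was 0.59 (SE 0.20, 95% interval 0.15 to 1.03, adjusted p = 0.046), and that of brain versus sham blood was 0.69 (adjusted p = 0.054). Without any 1 of the 6 libraries the adjusted p was 0.069 to 0.189, and the log2 fold change stayed between 0.47 and 0.66. With a transcript of 7578 bases *Nlrc5* is the longest member, the median log2 fold change of the 3630 genes over 4 kb was 0.22, and the length offset gave 0.43 (adjusted p = 0.069).

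The immunoproteasome subunits *Psmb8*, *Psmb9* and *Psmb10* (LMP7, LMP2 and MECL-1) were highest on average in stroke blood. So was each constitutive core subunit of the proteasome listed below. *Psmb8* measured 362, 326 and 304 normalised CPM in sham blood, 480, 383 and 574 in stroke blood, and 361, 443 and 388 in the brain. *Psmb9* measured 138, 162 and 157 in sham blood, 236, 163 and 218 in stroke blood, and 136, 194 and 170 in the brain. For both, stroke blood lay above sham blood without overlap, by a narrow margin for *Psmb9*, and brain overlapped with both blood groups. The log2 fold changes of brain versus stroke blood were -0.23 for *Psmb8* (95% interval -0.62 to 0.15, adjusted p = 0.333) and -0.27 for *Psmb9* (95% interval -0.69 to 0.15, adjusted p = 0.303).

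*Psmb10* was the immunoproteasome gene that differed between brain and stroke blood. It measured 234, 252 and 263 normalised CPM in sham blood, 366, 277 and 364 in stroke blood, and 178, 235 and 220 in the brain. Every brain library was below every stroke blood library, and only brain 2 and sham blood 1 overlapped between brain and sham blood, at 235 and 234. The log2 fold change of brain versus stroke blood was -0.63 (SE 0.17, 95% interval -1.01 to -0.26, adjusted p = 0.019), or 0.645-fold. It still passed with the length offset (-0.46, adjusted p = 0.028), with a transcript of 1311 bases and no exon shared with another gene. The call was lost without stroke blood 1 (0.070), stroke blood 3 (0.053) or brain 3 (0.061).

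Stroke blood was compared with sham blood to see what dMCAO changed in circulating cells. No member passed the test with edgeR or with DESeq2, in a comparison where edgeR called 1 of 12664 genes (0.00790%), and none passed without sham blood 1. For edgeR, at an unadjusted p below 0.05, 4 members were higher in stroke blood and none was lower, while 12.5% of all genes tested met that level, 6.51% higher and 5.97% lower. These 4 were *Tap1* (log2 fold change 0.48, adjusted p = 0.299), *Psmb8* (0.50, adjusted p = 0.330), *Psmb10* (0.39, adjusted p = 0.365) and *Psmb9* (0.40, adjusted p = 0.390). They were also the 4 members whose ranges did not overlap between the groups, which was so for 18.1% of all genes tested. With the length offset only *Tap1* (unadjusted p = 0.0015) and *Psmb8* (0.017) kept an unadjusted p below 0.05. For *Psmb10* it was 0.060 and for *Psmb9* 0.076. The median log2 fold change was 0.25 over the members and -0.03 over all genes tested. It was 0.26 over the 11 constitutive core subunits of the proteasome listed below, from 0.08 to 0.40, so this rise was not particular to the members. With the length offset the medians were 0.15 over the members and 0.05 over the core subunits. *B2m* gave 0.41 with an interval from -0.10 to 0.91 (adjusted p = 0.481), and *Tap2*, *H2-K1*, *H2-D1*, *Tapbp* and *Nlrc5* lay between 0.00 and 0.10.

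Brain and sham blood differed in 1 member, *Tap1*, in a comparison where 19.8% of 13020 genes were called, 12.1% higher and 7.68% lower. *Tap1*, *Tap2* and *Nlrc5* were the members whose brain and sham ranges did not overlap, against 41.2% of all genes tested. The 3 comparisons share libraries pairwise, so their results are not independent of each other.

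**Figure D2:**
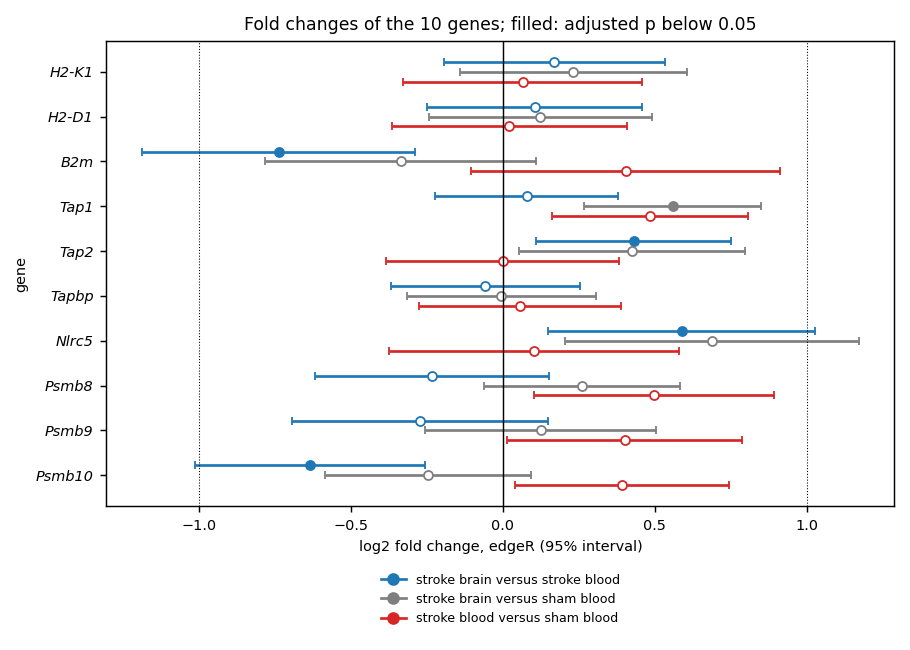
Log2 fold changes from edgeR (x axis, dots) with 95% intervals (bars) for the 10 genes (y axis) in brain versus stroke blood (blue), brain versus sham blood (grey) and stroke versus sham blood (red), each from 3 against 3 libraries. Filled dots mark an adjusted p below 0.05, and no dot reaches the dotted lines at 1 and -1.

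Ratios within a library do not depend on how libraries are scaled, and 6 were compared on the log2 scale of counts per kilobase of exon, with an exact two-sided permutation test whose smallest p is 0.1 at 3 against 3. None of the 18 tests could therefore pass 0.05, and the smallest adjusted p was 0.18. Relative to the light chain, the heavy chains were higher in every brain library. The log2 ratio of *H2-K1* to *B2m* was -3.43, -3.47 and -3.77 in stroke blood and -2.63, -2.57 and -2.79 in the brain, without overlap, a difference of 0.89 (exact p = 0.1). For *H2-D1* to *B2m* it was -1.23, -0.95 and -1.70 in stroke blood and -0.41, -0.35 and -0.65 in the brain, a difference of 0.82 (exact p = 0.1). Sham blood lay between these groups on average, and both ratios were higher in the brain than in sham blood without overlap, by 0.56 and 0.45.

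Each immunoproteasome subunit was set against the constitutive subunit whose place it takes. *Psmb8* to *Psmb5* was -0.15, -0.62 and -0.97 in sham blood, -0.32, -0.02 and -0.02 in stroke blood, and 0.38, 0.05 and 0.00 in the brain, all brain libraries being the higher ones. The difference between brain and stroke blood was 0.27 and that between brain and sham blood 0.73 (exact p = 0.1 for each). *Psmb9* to *Psmb6* went the other way, at -1.30, -1.45 and -1.44 in stroke blood and -1.94, -1.65 and -1.78 in the brain, a difference of -0.39 without overlap (exact p = 0.1). *Psmb10* to *Psmb7* did not separate brain from stroke blood, with a difference of -0.01 (exact p = 1), although the first brain library, at 3.98, was apart from the others at 4.76 and 4.45. The exons of *Psmb7* overlap those of *Nek6* on the other strand. *Tap1* to *Tap2* was 1.06, 0.96 and 1.07 in stroke blood, 0.73, 0.72 and 0.58 in the brain, and 0.79, 0.56 and 0.31 in sham blood. Stroke blood was above both other groups without overlap (exact p = 0.1 for each). These ratios pair transcripts of unequal length. As the difference of the log2 fold changes with the length offset, brain versus stroke blood gave 0.44 for *H2-K1* to *B2m*, 0.24 for *H2-D1* to *B2m*, -0.80 for *Psmb9* to *Psmb6* and -0.31 for *Tap1* to *Tap2*, and the direction of *Psmb8* to *Psmb5* turned, to -0.18. Against sham blood, *Psmb8* to *Psmb5* in the brain was 0.54, *H2-K1* to *B2m* 0.36 and *H2-D1* to *B2m* 0.21 on this scale.

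**Figure D3:**
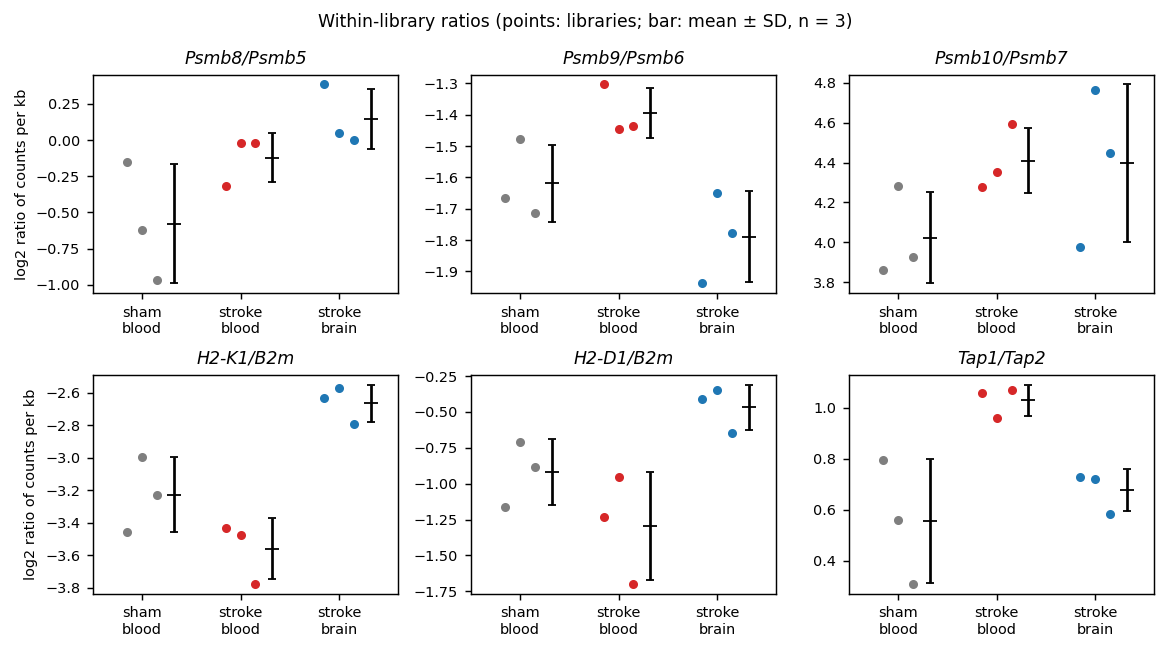
Log2 ratios of counts per kilobase of exon (y axis, a separate scale in each panel) within each library, for 6 gene pairs in sham blood (grey), stroke blood (red) and stroke brain (blue), with a point per library and a bar for the mean ± SD of 3 libraries. Both heavy chain to *B2m* ratios are highest in the brain, and *Psmb9* to *Psmb6* and *Tap1* to *Tap2* are highest in stroke blood.

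The other genes of the pathway were described in 5 lists of 65 genes. In brain versus stroke blood 11 of 65 were higher and 9 lower, beside 17.5% and 13.1% of all genes tested. The median log2 fold change was 0.05 over these genes. In stroke versus sham blood edgeR called none of the 63 tested. The unadjusted p was below 0.05 for 3 that were higher and 5 that were lower, and DESeq2 called 2, both lower. In brain versus sham blood 7 of 65 were higher and 4 lower, beside 12.1% and 7.68% of all genes tested.

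Among the upstream regulators, 7 of 23 were higher in the brain than in stroke blood and 2 were lower, beside 17.5% and 13.1% of all genes tested. The kinase *Jak2*, which signals from the interferon-gamma receptor, measured 18.1, 16.5 and 31.6 normalised CPM in stroke blood and 123, 105 and 88.7 in the brain (log2 fold change 2.30, SE 0.26, adjusted p = 3.27e-04). *Ciita*, the class II counterpart of *Nlrc5*, measured 27.9, 39.2 and 57.0 in stroke blood and 128, 111 and 84.7 in the brain (1.42, SE 0.27, adjusted p = 0.0040). For both genes every brain library was above all blood libraries. *Ifng*, the inducer of the set and mainly a product of T and NK cells, rose from 3.21, 0.71 and 0.48 in stroke blood to 5.08, 7.31 and 14.2 in the brain (2.61, SE 0.70, adjusted p = 0.020). The summed T cell markers of the brain lay above those of stroke blood. The NK cell markers overlapped through stroke blood 1, at 784, with 305 and 249 in the other stroke blood libraries and 471 to 1140 in the brain. Of the NK cell markers, only *Eomes* was higher in every brain library than in any stroke blood library. *Lck* made up most of the T cell sum, at 77.9, 76.2 and 105 in the brain and 45.5, 20.4 and 17.4 in stroke blood. Of the other T cell markers, *Cd3e* and *Trac* overlapped between these groups. *Cd3d*, *Cd3g*, *Cd8a* and *Bcl11b* were higher in every brain library than in any stroke blood library. Which cells made *Ifng* was not tested. *Rela*, the NF-kB subunit p65 (log2 fold change 1.14), *Ifnar1*, a chain of the type I interferon receptor (0.96), *Rfx5*, a factor of the element that NLRC5 uses (1.08), and *Jak1* (0.48) were also higher. The interferon regulatory factors *Irf2* and *Irf9* were lower. *Irf2* measured 117, 95.3 and 108 in stroke blood and 73.3, 39.8 and 52.1 in the brain (-0.92, adjusted p = 0.015), and *Irf9*, part of the complex that binds the ISRE, fell from 200, 188 and 206 to 101, 126 and 153 (-0.61, adjusted p = 0.025). *Irf1*, an interferon-induced factor of this set, did not pass, at 0.32 (adjusted p = 0.158).

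Of 14 class Ib and class I-like genes, 3 were higher in the brain than in stroke blood and 1 was lower, beside 17.5% and 13.1% of all genes tested. *H2-Q6* measured 33.8, 17.8 and 18.5 normalised CPM in stroke blood and 76.5, 129 and 121 in the brain (log2 fold change 2.25, SE 0.30, adjusted p = 6.84e-04). *H2-Q7*, a Qa-2 gene, measured 55.6, 29.5 and 39.1 in stroke blood and 90.4, 158 and 140 in the brain (1.68, SE 0.27, adjusted p = 0.0019). All brain libraries were above all blood libraries for both. Their counts are uncertain as single genes, since 21.1% and 27.5% of the stretches of 75 bases in their transcripts occur in other genes. *H2-T23*, which encodes Qa-1, measured 683, 585 and 713 in stroke blood and 428, 401 and 433 in the brain (-0.62, SE 0.14, adjusted p = 0.0099), the opposite direction. *Procr*, a class I-like receptor of protein C, had 20, 105 and 77 counts in the brain and 0 in each of the stroke blood libraries.

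**Figure D4:**
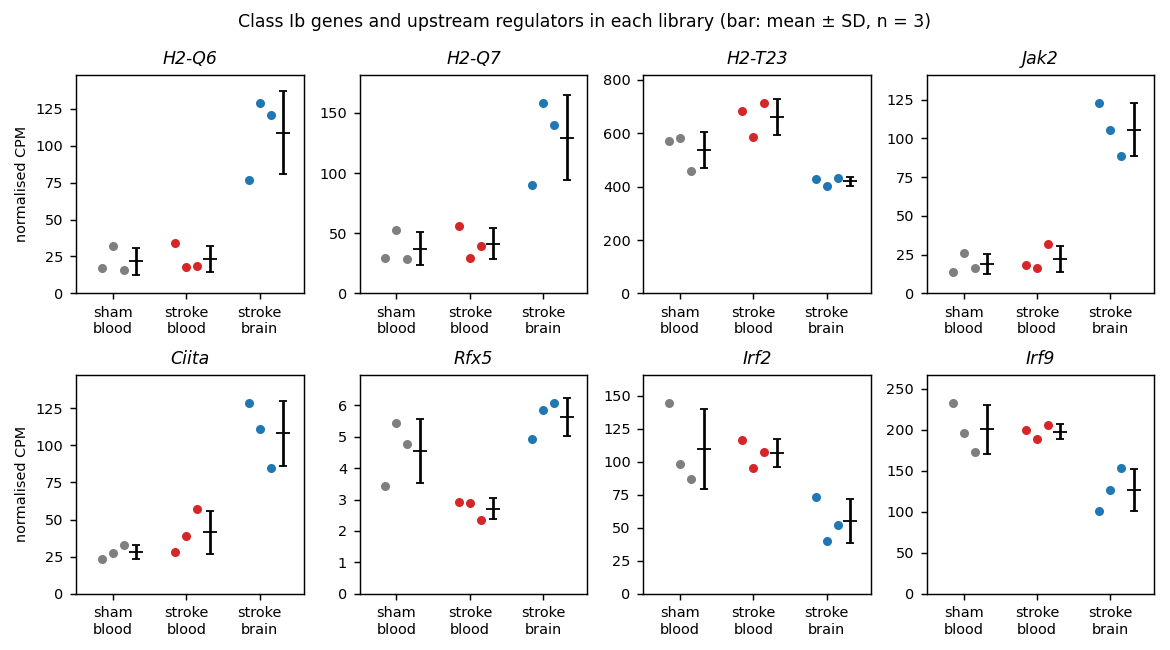
Normalised CPM (y axis, from 0) of 3 class Ib genes and 5 upstream regulators in sham blood (grey), stroke blood (red) and stroke brain (blue), with a point per library and a bar for the mean ± SD of 3 libraries. *H2-Q6*, *H2-Q7*, *Jak2* and *Ciita* are higher in every brain library than in any blood library, and *H2-T23* and *Irf2* are lower.

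Of the 9 genes of peptide loading and trimming, *Pdia3* (ERp57, part of the loading complex) was higher in the brain (log2 fold change 0.66, adjusted p = 0.015) and *Sec61b*, a subunit of the translocation channel, was lower (-1.11, adjusted p = 0.0028). Among 8 proteasome counterparts, caps and assembly factors, *Psmb7* (-0.62, adjusted p = 0.048) and *Pomp*, the assembly factor of the immunoproteasome and the constitutive proteasome (-0.73, adjusted p = 0.0066), were lower and none was higher. Of 11 constitutive core subunits 3 were lower and none was higher, beside 13.1% and 17.5% of all genes tested, namely *Psma7* (-0.83), *Psmb1* (-0.66) and *Psmb4* (-0.56). The median log2 fold change of the list was -0.41, and -0.26 with the length offset. *Sec61b*, *Psmb4* and *Psmb7* lost their calls with the length offset, as did *Rfx5* and *Jak1*. In the same lists *Psmb6* (0.68, adjusted p = 0.0040) and *Rfxap*, a subunit of the RFX complex (1.09, adjusted p = 0.0023), were called higher with it, and *Nfkb1* (-0.61, adjusted p = 0.0070) and *Psma2* (-0.57, adjusted p = 0.021) lower.

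The trend with transcript length ran in opposite directions in the 2 comparisons that involve stroke blood. In brain versus stroke blood the median log2 fold change was -0.69 for genes under 1 kb, -0.05 from 1 to 2 kb, 0.15 from 2 to 4 kb and 0.22 over 4 kb. In stroke versus sham blood the medians of the same classes were 0.38, 0.05, -0.13 and -0.09. Brain versus sham blood gave -0.37, -0.01, 0.04 and 0.11, the same direction as brain versus stroke blood. Not all members followed this order, since *H2-K1*, with 1619 bases, gave 0.17 in brain versus stroke blood beside -0.23 for *Psmb8* with 1628 bases. With the offset, 1 member, *Psmb10*, was called in brain versus stroke blood, and the log2 fold change of *Tap1* in stroke versus sham blood was 0.60 (adjusted p = 0.299).

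**Figure D5:**
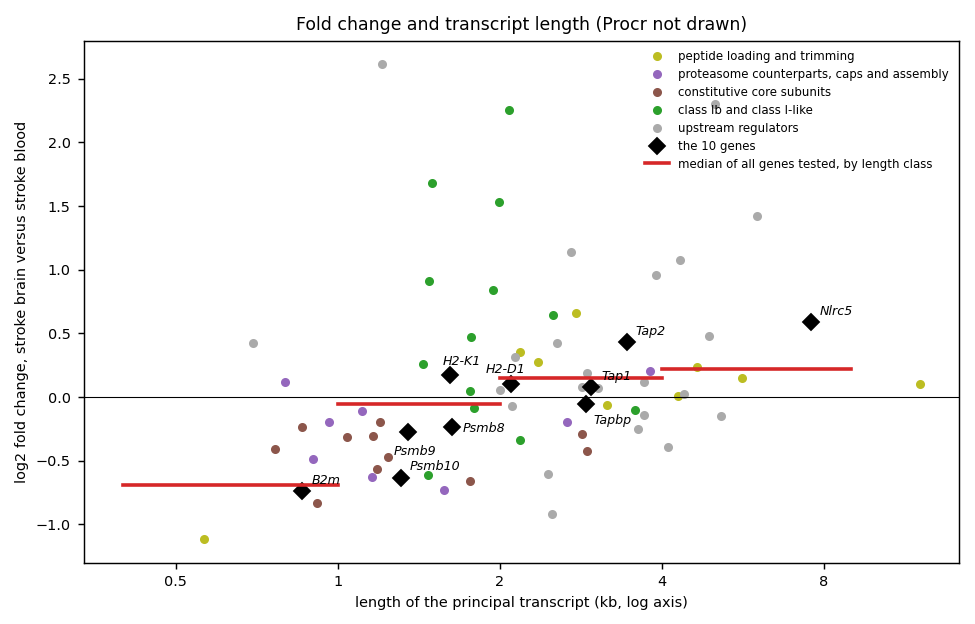
Log2 fold change of brain versus stroke blood (y axis) against the length of the principal transcript (x axis, kb, log scale) for the 10 genes (black diamonds) and the genes of the other pathway lists (coloured dots, without *Procr*). Red lines give the median of all genes tested in 4 length classes, from -0.69 under 1 kb to 0.22 over 4 kb.

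The genes whose levels followed each member most closely were found by Pearson's r of log2 CPM over the 9 libraries among 7903 genes, as a description, since the libraries share their groups and depth. *Psmb8* was closest to *Psme2* (r = 0.98), a subunit of the interferon-induced proteasome cap, and *H2-D1* to the interferon-induced gene *Igtp* (r = 0.91). *B2m* was closest to *Thoc7* (r = 0.98), *Tap1* to *Mef2c* (r = 0.94), *Tap2* to *Itga6* (r = 0.97) and *Nlrc5* to *Mgat4b* (r = 0.98). For the rest it was *Ppp2r5a* with *H2-K1* (r = 0.99), *Gm12250* with *Tapbp* (r = 0.92), *Vamp8* with *Psmb9* (r = 0.93) and *Nt5c* with *Psmb10* (r = 0.99). Among the members themselves, the highest values were 0.83 for *B2m* with *Psmb10*, 0.82 for *Psmb9* with *Psmb10* and 0.80 for *Psmb8* with *Psmb9*, and *H2-D1* with *B2m* gave 0.05.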

How the data were processed

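RNA was measured in 9 libraries (3 sham blood, 3 stroke blood, 3 stroke brain), grouped by the tissue and surgery in their labels. The authors aligned reads with HISAT2 (GRCm38) and made gene counts with HTSeq. The deposited values are raw counts, and tool versions and the annotation release are not given in the sources used here. Names, exons and transcript lengths came from GENCODE M21, which named 53620 identifiers.

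Genes were tested between 2 groups by edgeR's quasi-likelihood test (edgeR 4.0.16, R 4.3.3) after TMM scaling and its default filter on low counts, with Benjamini-Hochberg adjustment over all genes tested. Levels are counts over TMM-scaled library size. Ratios were tested in scipy 1.17.1, and figures drawn in matplotlib 3.10.9, under Python 3.11.15 with pandas 2.3.3. DESeq2 1.42.0, other filters and normalizations, left-out libraries and an offset for transcript length (added after the data were seen) were the alternatives. The scripts were tested on simulated counts for brain versus stroke blood, stroke versus sham blood and brain versus sham blood. Of 95 genes given an absolute log2 fold change of 1, the test called 29, 25 and 17. Of 105 genes given 2, it called 85, 89 and 83, and 8, 4 and 8 of the unchanged genes were called. A gene that did not pass may therefore still differ. Far fewer genes changed in these counts than were called in the brain comparisons, so the shares called need not hold for the members.

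All 10 members and the genes of the other lists that passed a test or entered a ratio are named, plus the genes most alike to each member. *Irf1* was named after its values were seen. The members and lists were chosen with earlier results of these data known. The sources used here do not say whether same-numbered libraries share animals. The correlations of their deviations from group means were -0.066 to 0.065, and those of differently numbered libraries -0.075 to 0.109. Such values cannot show whether animals were shared, and the samples were treated as unpaired.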

Additional observations from a re-analysis of the deposited data

How the results depend on the processing

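Of the alternatives run for the called members in brain versus stroke blood, *B2m* and *Psmb10* kept their direction in 17 of 17 fits and their call in 14 and 13, and *Nlrc5* and *Tap2* kept direction in 17 and their call in 4 each. *Tap1* against sham blood kept its call in 14 of 17. The number of members called higher in brain versus stroke blood (2) was 1 with DESeq2, with a mean of at least 50 counts and with downsampled counts, and 0 with no filter, with RLE or upper-quartile normalization, with all 9 libraries in 1 fit, with the length offset, and at an adjusted p below 0.01. With the replicate number as a block it was also 0 higher and 2 lower, but it is not known whether the numbers pair the samples. The number lower (2) was 1 with library size only and with the length offset, and 0 at an adjusted p below 0.01. Of the other pathway genes, 6 were higher and 4 lower at an adjusted p below 0.01, and 14 were lower with upper-quartile normalization. In stroke versus sham blood, DESeq2 called 2 pathway genes lower and edgeR with no filter called 1. Against sham blood, 2 members were higher in the brain with DESeq2, with library size only and with all 9 libraries in 1 fit, and 0 at an adjusted p below 0.01. There, 2 pathway genes were lower with library size only and with the length offset, and 0 at an adjusted p below 0.01. The cause of these changes was not tested.

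When 1 library was left out, brain versus stroke blood gave 0 to 1 members higher, 0 to 2 lower, and 6 to 10 pathway genes higher and 3 to 13 lower. Brain versus sham blood gave 0 to 1 members higher, and 5 to 8 pathway genes higher and 0 to 5 lower. The *Psmb10* to *Psmb7* difference ranged from -0.20 to 0.20 between brain and stroke blood, and *Tap1* to *Tap2* from -7.12e-05 to 0.24 between brain and sham blood. With the length offset *Psmb8* to *Psmb5* turned from 0.27 to -0.18 between brain and stroke blood, and the other 17 differences kept their sign.

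The following log2 fold changes took the opposite sign of the reported value, none of which had passed the test. In brain versus stroke blood *H2-D1* gave -0.0430 and *Tap1* -0.0714 with upper-quartile normalization, *Tap1* -0.0676 with the length offset, and *Tapbp* 0.0982 with library size only. In stroke versus sham blood *H2-D1* gave -0.00202 with no filter and -0.0150 with library size only, and *Tap2* gave -0.00404 with DESeq2, -0.0258 with no filter and -0.0392 with library size only. Against sham blood *Tapbp* gave 0.00556 with a mean of at least 50 counts and 0.117 with library size only. With 1 library left out, *Tapbp* ranged from -0.108 to 0.0104 in brain versus stroke blood, from -0.0215 to 0.101 in stroke versus sham blood and from -0.0812 to 0.0582 in brain versus sham blood. In stroke versus sham blood *H2-K1* ranged from -0.0503 to 0.131, *H2-D1* from -0.0759 to 0.0758, *Tap2* from -0.134 to 0.0709 and *Nlrc5* from -0.00480 to 0.293. *Psmb9* ranged from -0.00331 to 0.249 in brain versus sham blood.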
